A study of Mus musculus with 12 samples.

Results

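The interleukin-1 (IL-1), interleukin-18 (IL-18) and inflammasome genes examined here were 10 genes taken by symbol: the ligands Il1a, Il1b and Il18, the inhibitors Il1rn, Il1r2 and Il18bp, the sensor Nlrp3, the proteases Casp1 and Casp4, and the pore-forming protein gene Gsdmd. They were 10 of the 24346 gene symbols in the deposited tables. RNA-seq was carried out on 12 libraries of myeloid-derived suppressor cells (MDSCs), immature myeloid cells that restrain immune responses, sorted from Hepa 1-6 liver tumors. Each of 6 groups held 2 libraries: the monocytic subset (M-MDSC) and the polymorphonuclear subset (PMN-MDSC), each from mice given vehicle, MS-275 or CXD101. Both drugs inhibit class I histone deacetylases, enzymes that remove acetyl groups from histones, and the comparisons asked how such inhibition changed the RNA of the MDSCs in a tumor. All 6 groups came from female wild-type C57BL/6J mice aged 6 to 8 weeks that carried mouse Hepa 1-6 hepatoma cells injected into the liver. According to the methods of the study, vehicle (DMSO and PEG300 in PBS), MS-275 or CXD101 was injected into the abdomen daily, the drugs at 5 mg/kg, for 10 days from day 10, and cells were collected on day 21. This schedule is written for the M-MDSC groups, and the PMN-MDSC libraries are known from the labels alone. M-MDSCs were CD11b+, Ly-6C high and Ly-6G-, and PMN-MDSCs were CD11b+, Ly-6C intermediate and Ly-6G+. Whether a library came from 1 mouse or from pooled mice was not stated, so the p-values measure the spread between libraries and nothing wider.

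IL-1α and IL-1β are inflammatory cytokines that act on one shared receptor, and IL-18 is a related cytokine known for driving interferon-γ production by NK and T cells. IL-1β and IL-18 are made as inactive precursors and are cut by caspase-1, which is activated in inflammasomes, protein complexes assembled around sensors such as NLRP3. Caspase-11, the product of mouse Casp4, responds to bacterial lipopolysaccharide inside the cell, and both proteases cut gasdermin D, which then opens pores in the cell membrane. Neither protein levels nor the activity of an inflammasome was measured here.

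The promoters of the 3 ligand genes are shown because these genes encode the secreted cytokines of the family. Each run is the stretch of 250 bases before the RefSeq transcript start (GRCm38.p6), written 5′ to 3′ on the strand of the gene. Capitals mark matches to the motifs searched: the TATA box, spelled TATAAA, the PU.1 core, spelled GAGGAA, the C/EBP motif, spelled TTGCNNAA, the AP-1 motif, spelled TGANTCA, the motif of interferon regulatory factors, spelled GAAANNGAA, and the NF-kB consensus. Both strands were searched. The Il1a stretch was chr2:129309973-129310222 on the minus strand, the Il1b stretch chr2:129371140-129371389 on the minus strand, and the Il18 stretch chr9:50554450-50554699 on the plus strand.
Il1a: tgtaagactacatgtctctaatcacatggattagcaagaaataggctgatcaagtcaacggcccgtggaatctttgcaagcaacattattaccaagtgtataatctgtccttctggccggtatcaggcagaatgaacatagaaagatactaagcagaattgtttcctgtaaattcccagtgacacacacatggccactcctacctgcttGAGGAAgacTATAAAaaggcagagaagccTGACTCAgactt
Il1b: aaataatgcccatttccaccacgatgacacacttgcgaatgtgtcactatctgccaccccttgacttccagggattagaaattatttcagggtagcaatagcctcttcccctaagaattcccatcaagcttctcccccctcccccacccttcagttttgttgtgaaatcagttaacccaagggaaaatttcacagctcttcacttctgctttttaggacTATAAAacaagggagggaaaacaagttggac
Il18: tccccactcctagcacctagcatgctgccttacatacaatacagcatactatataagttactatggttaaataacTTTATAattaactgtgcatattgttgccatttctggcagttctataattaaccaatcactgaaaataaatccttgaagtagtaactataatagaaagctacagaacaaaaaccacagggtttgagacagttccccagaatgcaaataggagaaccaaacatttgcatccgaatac
A TATAAA match began 32 bases before the start of Il1a and 31 bases before that of Il1b. In Il18 the one match was at 175 bases before the start and on the other strand. Il1a also held a PU.1 core at 41 bases and an AP-1 match at 12 bases before the start, and these matches did not overlap each other. Among 32851 RefSeq promoters of the same length, 12.4% held TATAAA, 23.3% the PU.1 core, 9.56% the C/EBP letters, 6.75% the AP-1 letters, 7.13% the interferon regulatory factor letters and 7.25% the NF-kB consensus. The Il18 stretch was poor in G and C (35.6%, against 42.4% in Il1a, 44.4% in Il1b and a median of 52.4% over all promoters). Of the 10 genes, 9 had a promoter in the table, with 13 starts in all. A match is a description of the letters and was not tested for any function.

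**Figure D1:**
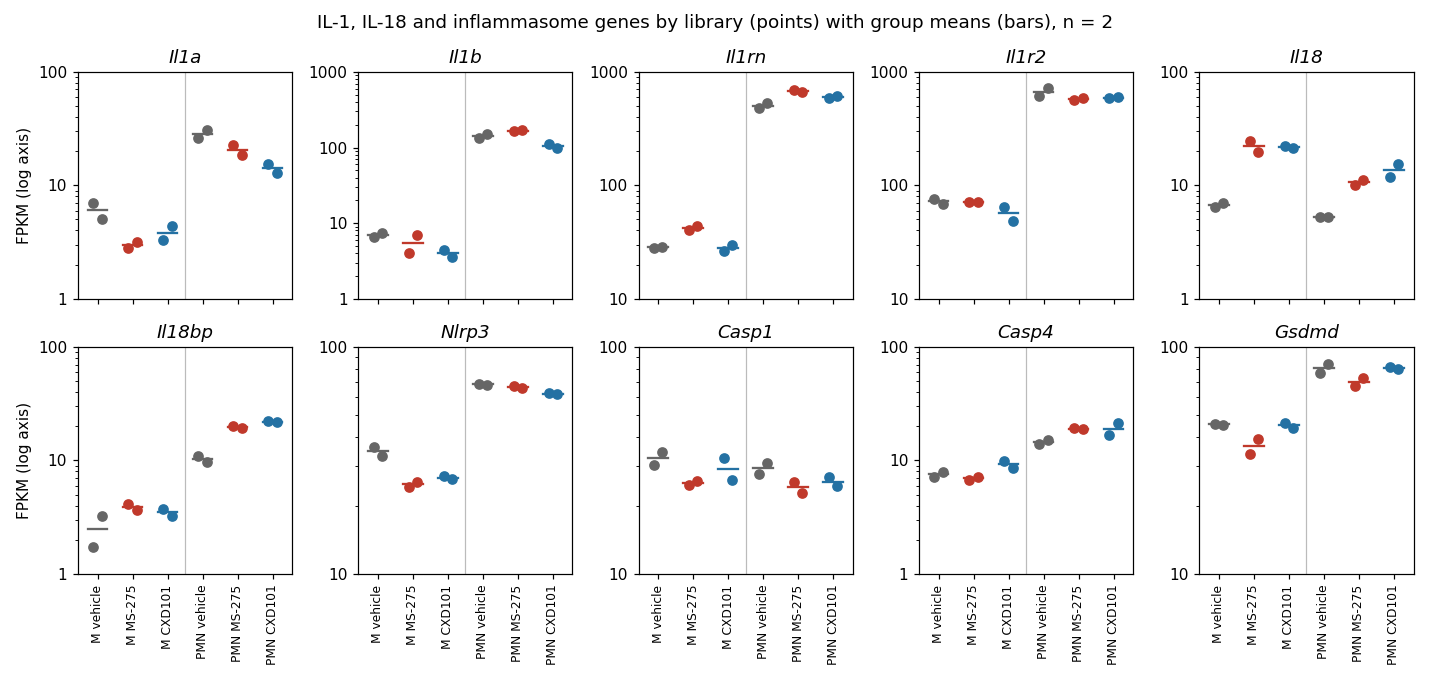
FPKM of each of the 10 genes (log axis) in the 12 libraries, grouped by subset and treatment, with points for libraries and a bar for the mean of the 2 libraries of a group. Every gene other than Il18 and Casp1 sat higher in all 6 PMN-MDSC libraries than in any M-MDSC library, and Il18 sat higher in every treated library than in the vehicle libraries of the same subset.

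Levels are given as FPKM, a read density corrected for gene length and library size, so genes of different length can be set side by side. Changes are log2 fold changes with their standard error (SE) on log2(FPKM + 1), from limma with Benjamini-Hochberg adjustment over all genes tested (11078 in M-MDSCs, 11184 in PMN-MDSCs, 11662 across both). A gene was called when its adjusted p-value was below 0.05 and it changed by more than 1.5-fold, and rose and fell are used only for called genes. All folds, and the 1.5-fold limit, are on the FPKM + 1 scale, so at low levels they understate the ratio of the FPKM values. All 10 genes passed the filter on low values (at least 1 FPKM in at least 2 libraries) in every comparison. MS-275 and CXD101 were compared with the same 2 vehicle libraries of a subset, so their results are given side by side and not as independent of each other. Because the samples were bulk, fewer cells of a type and less RNA per cell cannot be told apart.

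In M-MDSCs, Il18 was called higher under both inhibitors, and 1 IL-1 ligand transcript was called lower under each. Both Il1a and Il1b had values below vehicle under each drug. Neither was called between the drugs (-0.26, adjusted p = 0.321, for Il1a and 0.34, adjusted p = 0.299, for Il1b, limma). Under MS-275, 1 of the 10 genes rose (Il18) and 1 fell (Il1a), where 10.1% of all genes tested rose and 7.32% fell. Under CXD101, 1 rose (Il18) and 1 fell (Il1b), against 5.14% and 3.0% of all genes. The median log2 change of the 10 genes was -0.21 under MS-275 and -0.08 under CXD101, beside -0.06 and -0.02 over all genes tested. By adjusted p-value alone, 6 of the 10 differed from vehicle under MS-275 and 4 under CXD101.

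In PMN-MDSCs, Il18 and its inhibitor Il18bp rose under both drugs, and Il1a fell under CXD101. With MS-275, 2 of the 10 genes rose and none fell, where 14.6% of all genes rose and 14.2% fell. With CXD101, 2 rose and 1 fell, against 11.9% and 9.54%. The medians of the 10 genes were 0.10 and -0.06, beside -0.03 and -0.03 over all genes. By adjusted p-value alone, 7 of the 10 differed from vehicle under MS-275 and 6 under CXD101. With 10 genes, each count of 1 is 10%, so the called shares were not far from those of genes at large.

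**Figure D2:**
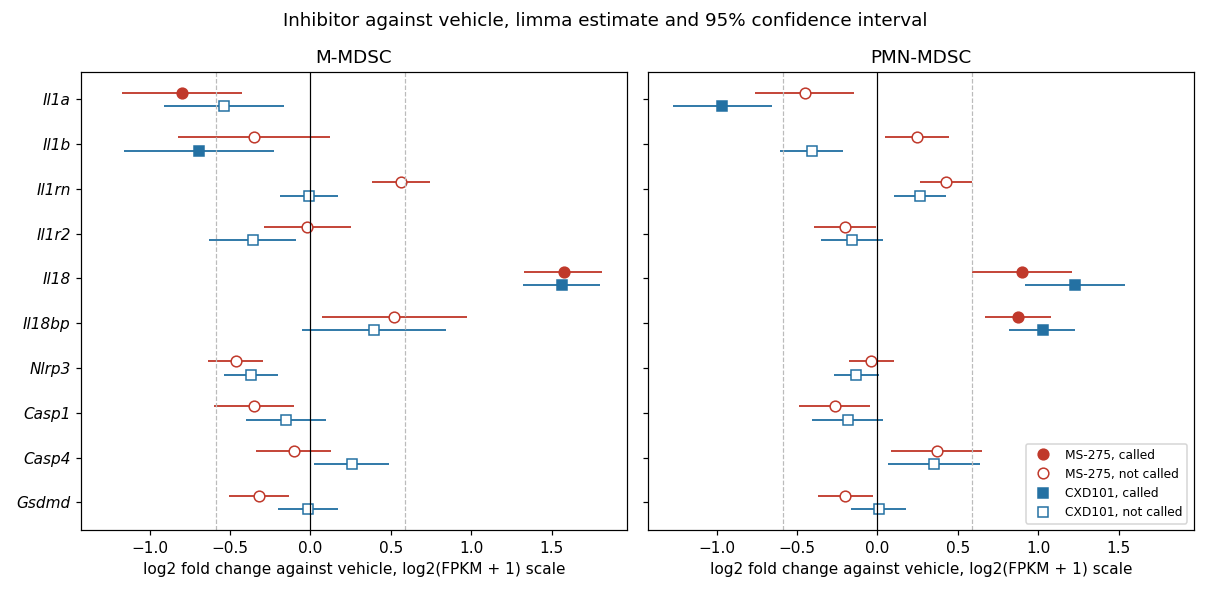
Log2 fold change of each gene against vehicle with its 95% confidence interval, for M-MDSCs (left) and PMN-MDSCs (right). Circles are MS-275 and squares CXD101, filled symbols are called genes, and dashed lines mark the fold change of 1.5. Il18 is the only one of the 10 genes called in all 4 comparisons, and the symbols of Nlrp3, Casp1, Casp4 and Gsdmd stay inside the dashed lines.

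Il18 encodes the precursor of IL-18 (chromosome 9, 50554827 to 50581840, plus strand, GRCm38). In M-MDSCs it was at 6.45 and 7.03 FPKM with vehicle, 24.4 and 19.8 with MS-275, and 22.1 and 21.5 with CXD101. The treated libraries were all well above the vehicle libraries, and the libraries of the 2 drugs overlapped. The log2 change was 1.57 (SE 0.105, adjusted p = 1.85e-05, limma) with MS-275 and 1.56 (SE 0.105, adjusted p = 7.00e-05) with CXD101, or 2.98-fold and 2.95-fold. The difference between the drugs was 0.01 on the log2 scale, with a 95% confidence interval from -0.23 to 0.25. In PMN-MDSCs Il18 was at 5.25 and 5.22 FPKM with vehicle, 10.04 and 11.2 with MS-275, and 11.9 and 15.5 with CXD101, again without overlap between treated and vehicle libraries. It rose by 0.90 (SE 0.133, adjusted p = 0.00096, limma) and by 1.23 (SE 0.133, adjusted p = 0.000329). The rise in PMN-MDSCs with MS-275 was smaller than that in M-MDSCs, with an interaction of -0.68 (SE 0.178, adjusted p = 0.0157). That call was lost without M-MDSC vehicle replicate 1 (-0.62, adjusted p = 0.0540), M-MDSC MS-275 replicate 1 (-0.53, adjusted p = 0.0630) or PMN-MDSC MS-275 replicate 1 (-0.60, adjusted p = 0.0535). With CXD101 the interaction was -0.33 (95% interval -0.73 to 0.06, adjusted p = 0.202). The values rest on few reads, an estimated 37 to 229 per library, and the gene overlaps Bco2 and Tex12 on the opposite strand.

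Il18bp encodes a secreted protein that binds IL-18 and keeps it from its receptor (chromosome 7, 102014885 to 102018690, minus strand). In PMN-MDSCs it was at 10.9 and 9.73 FPKM with vehicle, 20.05 and 19.3 with MS-275, and 22.3 and 21.7 with CXD101. Every treated library was far above both vehicle libraries. The log2 change was 0.87 (SE 0.0892, adjusted p = 0.000156, limma) with MS-275 and 1.03 (SE 0.0892, adjusted p = 0.000123) with CXD101. M-MDSCs held less of it, at 1.75 and 3.23 FPKM with vehicle, 4.17 and 3.63 with MS-275, and 3.73 and 3.26 with CXD101. The 2 vehicle libraries differed more from each other than the treated libraries did, although every treated library was above both. Neither change was called there (0.52, adjusted p = 0.0574, and 0.40, adjusted p = 0.179). Without M-MDSC vehicle replicate 2 both were called, at 0.83 (adjusted p = 0.00652) and 0.71 (adjusted p = 0.0264). The interactions were 0.35 (adjusted p = 0.289) for MS-275 and 0.63 (adjusted p = 0.0768) for CXD101, so a difference in response between the subsets was not shown. Without M-MDSC vehicle replicate 1, both interactions were called, at 0.66 (adjusted p = 0.0151) and 0.94 (adjusted p = 0.00452). Il18bp overlaps Numa1 on the opposite strand.

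The balance of the cytokine and its inhibitor differed between the subsets. In vehicle M-MDSCs the ratio of Il18bp to Il18 was 0.271 and 0.459, and it was between 0.151 and 0.183 in the 4 treated libraries. In PMN-MDSCs the ratio was 2.07 and 1.86 with vehicle and between 1.40 and 2.0 with the drugs. The inhibitor transcript thus exceeded the cytokine transcript in all 6 PMN-MDSC libraries and in none of the 6 M-MDSC libraries. These ratios were chosen after the values were seen and were not tested.

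**Figure D3:**
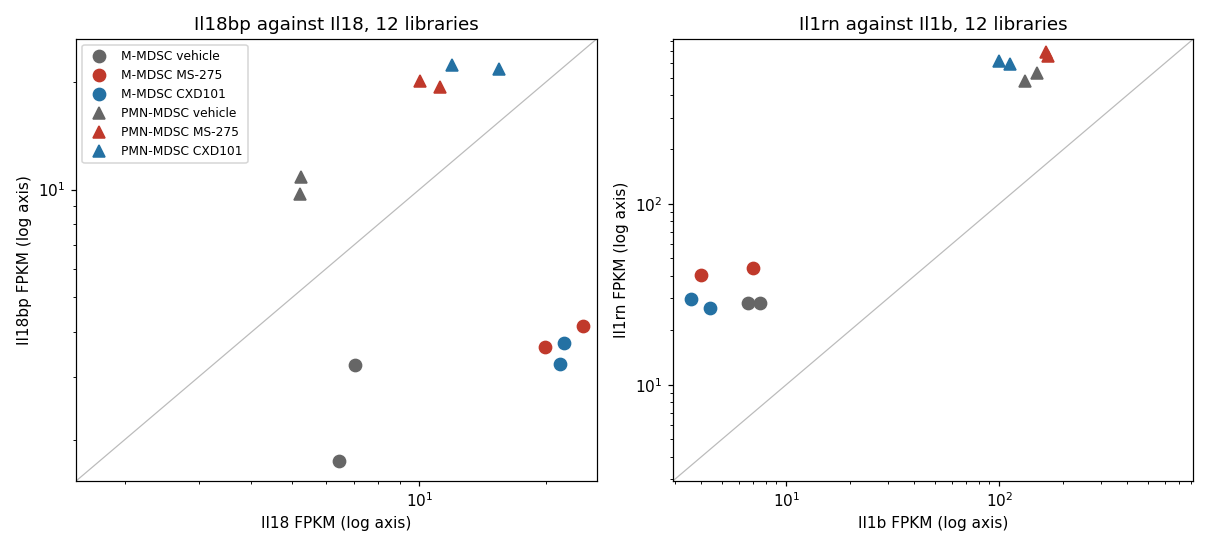
Il18bp against Il18 (left) and Il1rn against Il1b (right), in FPKM on log axes, with 1 symbol for each of the 12 libraries. Circles are M-MDSCs, triangles PMN-MDSCs, and the grey line marks equal levels. M-MDSC libraries lie below the line on the left and PMN-MDSC libraries above it, while on the right all libraries lie above the line.

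Il1a encodes IL-1α, which is active as a precursor and needs no inflammasome (chromosome 2, 129299610 to 129309972, minus strand). In M-MDSCs it was at 6.93 and 5.10 FPKM with vehicle, 2.82 and 3.20 with MS-275, and 3.29 and 4.35 with CXD101. All 4 treated libraries were below both vehicle libraries. It fell by 0.80 with MS-275 (SE 0.162, adjusted p = 0.00451, limma), while with CXD101 the change of -0.54 (SE 0.162, adjusted p = 0.0461) was under the fold limit. PMN-MDSCs held more, at 26.3 and 30.7 FPKM with vehicle, 22.6 and 18.5 with MS-275, and 15.4 and 12.8 with CXD101, and the 3 groups did not overlap. There it fell by 0.96 with CXD101 (SE 0.132, adjusted p = 0.000927), and the MS-275 value of -0.45 (SE 0.132, adjusted p = 0.0218) was under the fold limit. Neither interaction was called (0.34, adjusted p = 0.289, for MS-275 and -0.43, adjusted p = 0.205, for CXD101).

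Il1b encodes the precursor of IL-1β (chromosome 2, 129364570 to 129371139, minus strand). In PMN-MDSCs it was at 133 and 150 FPKM with vehicle, 166 and 169 with MS-275, and 113 and 99.4 with CXD101. The 3 groups did not overlap, with MS-275 highest and CXD101 lowest. Against vehicle the log2 values were 0.25 (SE 0.0849, adjusted p = 0.0409, limma) and -0.41 (SE 0.0849, adjusted p = 0.00612), both under the fold limit and of opposite sign. The drugs differed by 0.66 (SE 0.0849, adjusted p = 0.0236), 1.58-fold higher with MS-275. This was the 1 gene of the 10 called higher between the drugs in PMN-MDSCs, where 0.465% of all genes were called higher with MS-275 and 0.340% lower. The call was lost when any 1 of its 4 libraries was left out (adjusted p 0.0754 to 0.151) and in 3 other settings given below. In M-MDSCs Il1b was at 6.60 and 7.5 FPKM with vehicle, 3.98 and 6.97 with MS-275, and 4.41 and 3.57 with CXD101. The MS-275 libraries overlapped the vehicle libraries and their change of -0.35 was not called (adjusted p = 0.194), while without MS-275 replicate 2 it was -0.69 (adjusted p = 0.0113). The fall of 0.69 with CXD101 (SE 0.205, adjusted p = 0.0426) was lost when any of its 4 libraries was left out (adjusted p 0.0834 to 0.184). The interactions were 0.60 (adjusted p = 0.1) for MS-275 and 0.28 (adjusted p = 0.451) for CXD101. Il1b overlaps the antisense gene Il1bos.

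Il1rn encodes the IL-1 receptor antagonist, which occupies the receptor without signalling (chromosome 2, 24336853 to 24351494, plus strand). It was at 28.3 and 28.4 FPKM in vehicle M-MDSCs, 40.6 and 44.1 with MS-275, and 26.5 and 29.8 with CXD101. The MS-275 libraries were above all others of the subset, and the CXD101 libraries lay on both sides of the vehicle libraries. The MS-275 value of 0.56 (SE 0.0787, adjusted p = 0.000701, limma) corresponded to 1.48-fold, just under the limit. It was 0.57 higher with MS-275 than with CXD101 (adjusted p = 0.00413), also just under the limit. In M-MDSCs none of the 10 genes was called between the drugs, where 3.22% of all genes were called higher and 1.17% lower. By adjusted p-value alone 2 of the 10 differed, Il1rn and Gsdmd. In PMN-MDSCs Il1rn was at 477 and 530 FPKM with vehicle, 695 and 661 with MS-275, and 593 and 616 with CXD101, without overlap between the groups. The values were 0.43 (adjusted p = 0.00145) and 0.26 (adjusted p = 0.0168), both under the fold limit. The ratio of Il1rn to Il1b was 4.29 and 3.78 in vehicle M-MDSCs and between 6.02 and 10.2 in the treated ones. In PMN-MDSCs it was 3.60 and 3.54 with vehicle, 4.19 and 3.91 with MS-275, and 5.26 and 6.19 with CXD101, so every treated library was above both vehicle libraries of its subset.

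Il1r2 encodes a decoy receptor that binds IL-1 and does not signal (chromosome 1, 40074079 to 40125231, plus strand). It was the most abundant of the 10 genes in M-MDSCs, at 75.7 and 69.1 FPKM with vehicle, 70.8 and 71.8 with MS-275, and 64.7 and 48.7 with CXD101. PMN-MDSC libraries had 607 and 719 FPKM with vehicle, 563 and 586 with MS-275, and 587 and 598 with CXD101. The treated PMN-MDSC libraries were all below the vehicle libraries, by values of -0.20 (adjusted p = 0.0724) and -0.16 (adjusted p = 0.160) that were not called. In M-MDSCs the CXD101 value was -0.36 (adjusted p = 0.0594), and the MS-275 libraries lay within the vehicle range. Il1r2 overlaps the genes Gm16894 and Gm37347.

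Nlrp3 encodes the sensor of the NLRP3 inflammasome (chromosome 11, 59541568 to 59566956, plus strand). In M-MDSCs it was at 36.3 and 33.0 FPKM with vehicle, 24.2 and 25.4 with MS-275, and 27.1 and 26.1 with CXD101. All treated libraries were below the vehicle libraries, with values of -0.47 (SE 0.0735, adjusted p = 0.0013, limma) and -0.37 (SE 0.0735, adjusted p = 0.00933), both under the fold limit. The PMN-MDSC libraries stood at 68.7 and 68.1 FPKM with vehicle, 67.3 and 66.0 with MS-275, and 62.9 and 61.8 with CXD101, a range of values that was narrow and not called. The interaction with MS-275 was 0.43 (SE 0.0878, adjusted p = 0.00458), under the fold limit, and that with CXD101 was 0.24 (adjusted p = 0.0744). Of the 10 genes, 1 was called in the MS-275 interaction (Il18, lower), where 8.65% of all genes were called higher and 9.48% lower. In the CXD101 interaction limma called none of the 10, and none passed by adjusted p-value alone, although Il1rn, Il18bp and Nlrp3 had an unadjusted p-value under 0.05 (0.0235, 0.0224 and 0.0214). Over all genes 7.31% were called higher and 6.59% lower there.

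Casp1 encodes caspase-1, the protease of the canonical inflammasome (chromosome 9, 5298517 to 5307265, plus strand). Its level was much the same in both subsets, at 30.3 and 34.4 FPKM in vehicle M-MDSCs and 27.6 and 30.8 in vehicle PMN-MDSCs. It was at 24.6 and 25.7 with MS-275 and 32.3 and 26.0 with CXD101 in M-MDSCs, and at 25.5 and 22.7 with MS-275 and 26.6 and 24.5 with CXD101 in PMN-MDSCs. The MS-275 values of -0.35 (adjusted p = 0.0292, limma) and -0.27 (adjusted p = 0.0471) were under the fold limit, and the CXD101 values of -0.15 and -0.19 did not pass (adjusted p = 0.350 and 0.149). Casp4, its neighbor on the chromosome (5308828 to 5336783), encodes caspase-11. It was at 7.21 and 7.92 FPKM with vehicle, 6.74 and 7.20 with MS-275, and 9.87 and 8.62 with CXD101 in M-MDSCs. Its PMN-MDSC levels were 14.0 and 15.2 FPKM with vehicle, 19.4 and 18.9 with MS-275, and 16.6 and 21.5 with CXD101. Every treated PMN-MDSC library was above the vehicle libraries, by values of 0.37 (adjusted p = 0.0357) and 0.35 (adjusted p = 0.0480) that were under the fold limit. Gsdmd encodes gasdermin D (chromosome 15, 75862327 to 75867408, plus strand). It was at 46.0 and 45.4 FPKM with vehicle, 33.6 and 39.3 with MS-275, and 46.2 and 44.2 with CXD101 in M-MDSCs, and at 76.7 and 84.4, 67.2 and 72.7, and 81.4 and 80.2 in PMN-MDSCs. Both MS-275 groups lay below their vehicle libraries, at -0.32 (adjusted p = 0.0124) and -0.20 (adjusted p = 0.0529), and both CXD101 values were near 0, at -0.02 and 0.01.

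The IL-1 genes differed most between the subsets. With vehicle, 8 of the 10 genes were called higher in the PMN-MDSC libraries and none lower, where 17.2% of all genes were called higher and 16.8% lower. The median difference of the 10 genes was 1.35 on the log2 scale, beside -0.01 over all genes. The 10 genes were chosen with earlier results of these data known, so these counts describe them and test nothing about the family. Il1b was 17.7-fold higher (log2 4.14, SE 0.179, adjusted p = 1.91e-08, limma) and Il1rn 17.2-fold higher (4.10, SE 0.0734, adjusted p = 1.41e-10). Il1r2 followed at 9.02-fold (3.17), Il1a at 4.22-fold (2.08) and Il18bp at 3.31-fold (1.73). The inflammasome genes differed less, with Nlrp3 at 1.95-fold (0.96), Casp4 at 1.82-fold (0.87) and Gsdmd at 1.74-fold (0.80). Casp1 was at -0.14 (95% interval -0.39 to 0.10, adjusted p = 0.285) and Il18 at -0.31 (95% interval -0.59 to -0.03, adjusted p = 0.0512), both not called. The 8 genes were called in each of the 12 fits that left out 1 library.

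**Figure D4:**
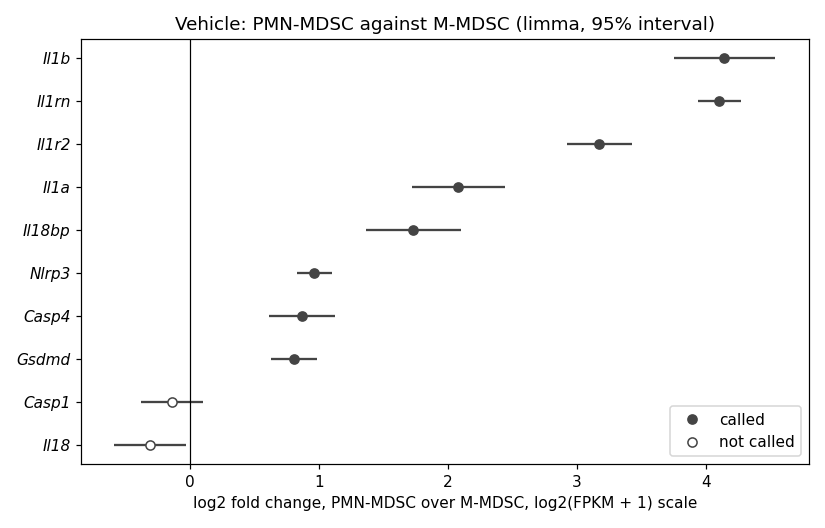
Log2 fold change of PMN-MDSCs over M-MDSCs with vehicle for the 10 genes, ordered by size, with 95% confidence intervals and filled symbols for called genes. Il1b (4.14) and Il1rn (4.10) lie farthest to the right, and Casp1 (-0.14) and Il18 (-0.31) lie just left of 0.

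The order of levels also differed between the subsets. In vehicle M-MDSCs it ran from Il1r2 through Gsdmd, Nlrp3, Casp1 and Il1rn to Casp4, Il1b, Il18, Il1a and Il18bp. The libraries of Nlrp3 and Casp1 overlapped, as did those of Casp4, Il1b, Il18 and Il1a as a chain of neighbors. In vehicle PMN-MDSCs it ran from Il1r2 through Il1rn, Il1b, Gsdmd and Nlrp3 to Casp1, Il1a, Casp4, Il18bp and Il18, and only Casp1 and Il1a overlapped. Of the 3 ligand transcripts together, Il1b made up 33.0% and 38.2% in vehicle M-MDSCs, and 80.8% and 80.7% in vehicle PMN-MDSCs. Genes whose log2 levels ran most like those of a member over the 12 libraries were Rab7, Lilrb4a and Mknk1 for Il1b (Pearson r 0.995, 0.994 and 0.994). For Il18 they were Thra, Sirt3 and Mgst2 (0.965, 0.964 and 0.959), and for Casp1 Prpsap2, Pgm1 and Sf3b6 (0.906, 0.900 and 0.895). These correlations are descriptions over libraries that share subsets and treatments.

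The other genes of the pathway were taken from 7 lists, each described by its counts. The lists too were chosen with earlier results of these data known, so their counts are a description. Of 6 other IL-1 family ligands, 1 passed the filter, and 3 were listed at 0 in all 12 libraries. It was the IL-36γ gene, listed as Il1f9, which was at 30.1 and 30.9 FPKM in vehicle M-MDSCs and 14.2 and 15.6 with MS-275. It fell there by 0.99 (adjusted p = 3.01e-05, limma) and was at 23.7 and 23.4 with CXD101 (-0.36, under the fold limit). Vehicle PMN-MDSCs had 214 and 240 FPKM, against 317 and 302 with MS-275 (0.45, under the fold limit), and the MS-275 interaction of 1.44 was called (adjusted p = 9.87e-06).

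Among 7 IL-1 and IL-18 receptor genes, 6 were tested in PMN-MDSCs, of which 3 rose and 2 fell under each drug (median log2 change 0.43 and 0.56). Over all genes 14.6% rose and 14.2% fell with MS-275, and 11.9% and 9.54% with CXD101, with medians of -0.03 and -0.03. Both chains of the IL-18 receptor were among the 3 that rose. Il18r1, the ligand-binding chain, was at 1.98 and 2.73 FPKM with vehicle, 7.87 and 8.57 with MS-275, and 8.57 and 7.73 with CXD101, with log2 changes of 1.47 and 1.45 (adjusted p = 0.000118 and 0.000207, limma). Il18rap, the accessory chain, was at 22.2 and 28.5 FPKM with vehicle, 53.1 and 52.0 with MS-275, and 52.0 and 56.2 with CXD101, with changes of 1.03 and 1.07. Il18, Il18bp and both receptor chains were thus all higher in every treated PMN-MDSC library than in the vehicle libraries. In M-MDSCs Il18r1 stayed under 1 FPKM in every library and was not tested. Il18rap was not called there, and its interactions were called for MS-275 (0.63) and CXD101 (1.17). Sigirr, an inhibitory receptor of the family, rose under both drugs in PMN-MDSCs (1.53 and 1.36) and under MS-275 in M-MDSCs (0.95). Il1rl1, the IL-33 receptor, and Il1rl2, the IL-36 receptor, fell in PMN-MDSCs under MS-275 (-0.78 and -0.77) and CXD101 (-0.71 and -0.59). Il1r1, the signalling IL-1 receptor, was under 1 FPKM in all 12 libraries, and Il1rap, its accessory chain, was not called under a drug.

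Of 12 receptor signalling genes, all tested, 1 fell under MS-275 in M-MDSCs and 1 rose in PMN-MDSCs, and none was called under CXD101. Over all genes 10.1% rose and 7.32% fell with MS-275 in M-MDSCs, and 14.6% and 14.2% in PMN-MDSCs. With CXD101, 5.14% rose and 3.0% fell in M-MDSCs, and 11.9% and 9.54% in PMN-MDSCs. Myd88, the adaptor of these receptors, was at 95.8 and 99.9 FPKM in vehicle M-MDSCs, 56.4 and 55.2 with MS-275 and 72.0 and 71.6 with CXD101. It fell by 0.80 with MS-275 (adjusted p = 2.37e-05, limma), and the interaction was 0.81 (adjusted p = 0.000478), with PMN-MDSC libraries between 81.4 and 96.1 FPKM throughout. Tab2, a binding partner of the kinase TAK1, rose by 0.72 with MS-275 in PMN-MDSCs. With vehicle, Irak2 and Irak3 were higher in PMN-MDSCs (1.85 and 1.46).

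Of 15 NF-kB and early inflammatory genes, 13 were tested in M-MDSCs, of which 4 fell under MS-275, 3 fell under CXD101 and none rose. Over all genes 7.32% fell there with MS-275 and 3.0% with CXD101, while 10.1% and 5.14% rose. Relb, a subunit of the noncanonical NF-kB pathway, was at 8.41 and 9.41 FPKM with vehicle, 2.21 and 2.24 with MS-275, and 3.22 and 3.98 with CXD101 (-1.62 and -1.11, adjusted p = 3.07e-05 and 0.000641, limma). Nfkb2, its partner, fell by 1.49 and 1.06, and both genes fell in PMN-MDSCs too (-0.71 and -0.94 for Relb, -0.99 and -1.03 for Nfkb2). Il6 was low, at 3.01 and 2.36 FPKM in vehicle M-MDSCs and 2.41 and 2.35 in vehicle PMN-MDSCs, and 7 of the 8 treated libraries were under 1 FPKM. It was called lower in all 4 comparisons, but in neither subset would it have passed the filter without the vehicle libraries. Il6 is counted among the falls of both subsets given here. In PMN-MDSCs 14 genes of the list were tested. Of these, 2 rose and 3 fell with MS-275, and 1 rose and 3 fell with CXD101. Over all genes 14.6% rose and 14.2% fell there with MS-275, and 11.9% and 9.54% with CXD101. Nfkbiz, which encodes a nuclear IκB protein, rose in PMN-MDSCs (1.07 and 0.72), as did the chemokine gene Cxcl2 with MS-275 (0.89). With vehicle, 10 of 14 genes of the list were higher in PMN-MDSCs and none lower, beside 17.2% and 16.8% of all genes. The 10 were led by Cxcl2 (4.28), Ier3 (2.47) and Tnf (1.94).

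**Figure D5:**
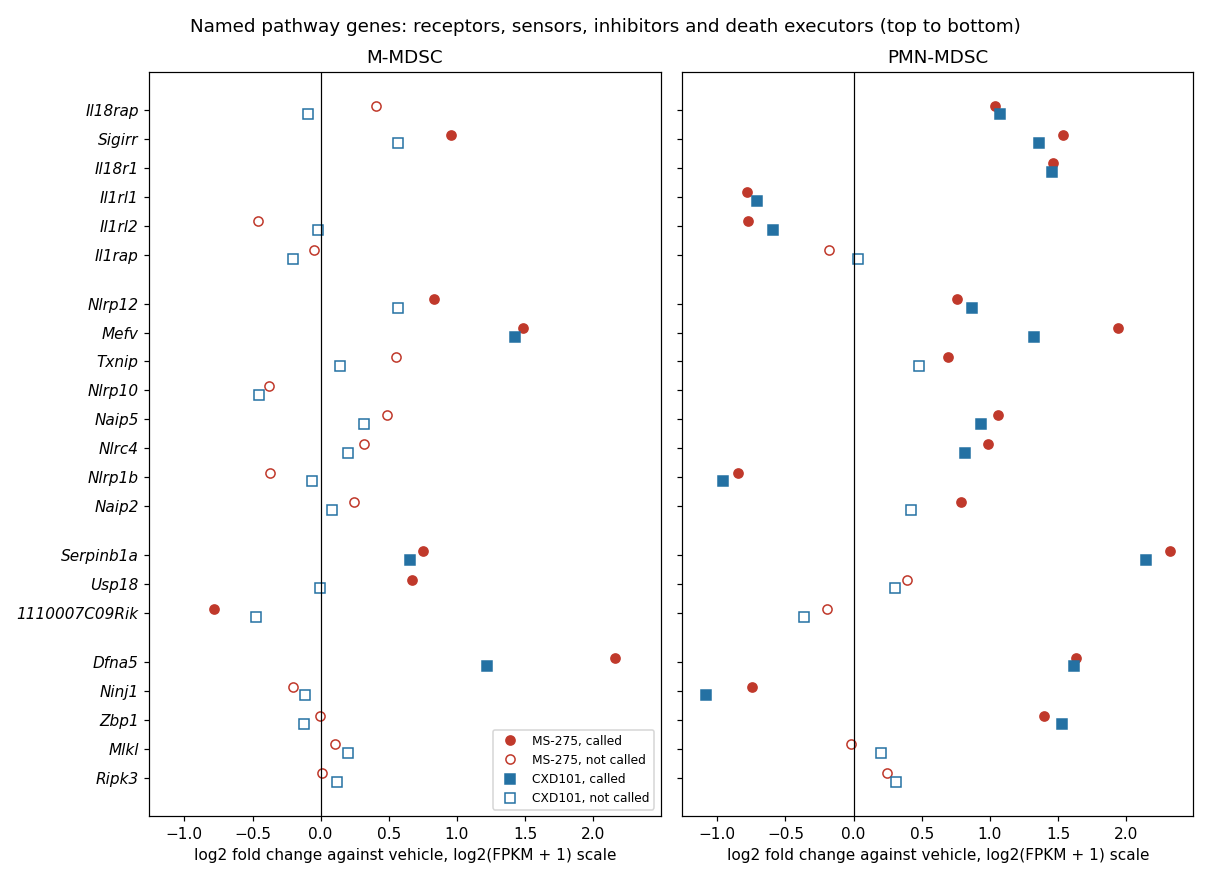
Log2 fold change against vehicle of the named receptor, sensor, inhibitor and death genes, in blocks from top to bottom, for M-MDSCs (left) and PMN-MDSCs (right). Circles are MS-275, squares CXD101, and filled symbols are called genes. Mefv, Serpinb1a and Dfna5 are called in all 4 comparisons, although Dfna5 passed the filter in M-MDSCs only through treated libraries. Il18r1 and Il1rl1 have no symbol in M-MDSCs because they did not pass the filter.

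Of 15 genes for sensors and adaptors other than Nlrp3, 11 were tested in PMN-MDSCs. Of these, 6 rose and 2 fell with MS-275, and 4 rose and 1 fell with CXD101 (median log2 change 0.69 and 0.42). Over all genes 14.6% rose and 14.2% fell with MS-275, and 11.9% and 9.54% with CXD101, with medians of -0.03 and -0.03. In M-MDSCs 12 were tested, of which 2 rose with MS-275 (Mefv and Nlrp12) and 1 with CXD101 (Mefv) and none fell. Over all genes 10.1% rose and 7.32% fell there with MS-275, and 5.14% and 3.0% with CXD101. Nlrp12 was at 0.323 and 0.481 FPKM in vehicle M-MDSCs and passed the filter there only through treated libraries. In the interactions, 1 of 12 was called higher with MS-275, and 2 higher and 1 lower with CXD101. Of all genes, 8.65% were called higher and 9.48% lower with MS-275, and 7.31% and 6.59% with CXD101. Mefv, which encodes the sensor pyrin, was at 1.37 and 1.92 FPKM in vehicle M-MDSCs, 6.70 and 6.03 with MS-275, and 6.15 and 5.97 with CXD101. In PMN-MDSCs it was at 4.86 and 5.67 FPKM with vehicle, 22.8 and 23.1 with MS-275, and 16.0 and 13.3 with CXD101. It rose in all 4 comparisons (1.48, 1.42, 1.94 and 1.32, adjusted p at most 0.000273, limma). Nlrc4 and its partner Naip5, which sense bacterial flagellin, rose in PMN-MDSCs under both drugs (0.98 and 0.82 for Nlrc4, 1.06 and 0.93 for Naip5). Nlrp12 rose there too (0.76 and 0.87), and Nlrp1b fell (-0.85 and -0.96). Naip2 and Txnip rose with MS-275 in PMN-MDSCs (0.79 and 0.69). Nlrp10 was under 1 FPKM in all 6 PMN-MDSC libraries and passed the filter only through M-MDSCs.

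Of 7 genes for inflammasome and protease inhibitors, 4 were tested. Serpinb1a, an inhibitor of neutrophil proteases and inflammatory caspases, was at 56.4 and 65.0 FPKM in vehicle PMN-MDSCs, 309 and 305 with MS-275, and 266 and 277 with CXD101 (2.32 and 2.14, adjusted p = 1.51e-06 and 2.69e-06, limma). It also rose in M-MDSCs (0.75 and 0.66), by less than in PMN-MDSCs (interactions 1.57 and 1.49). In M-MDSCs 1110007C09Rik, an older symbol of Card19, fell with MS-275 (-0.79). Usp18 was called higher there (0.67), but only its 2 MS-275 libraries were above 1 FPKM, so it passed the filter through them. Of 9 genes for executors of lytic cell death, all tested, Dfna5 (the older symbol of Gsdme, a gasdermin cut by caspase-3) was at 1.48 and 0.977 FPKM in vehicle M-MDSCs, 9.15 and 8.63 with MS-275, and 4.33 and 4.0 with CXD101. In PMN-MDSCs it was at 13.2 and 15.7 FPKM with vehicle and between 45.9 and 47.3 in the 4 treated libraries. It rose by 2.16 and 1.22 in M-MDSCs and by 1.63 and 1.62 in PMN-MDSCs, while Gsdmd was called under neither drug. In M-MDSCs Dfna5 passed the filter only through treated libraries, because 1 of its vehicle libraries was below 1 FPKM. In PMN-MDSCs Zbp1, a nucleic acid sensor of necroptosis, rose (1.39 and 1.52), and Ninj1, which ruptures the membrane of dying cells, fell (-0.75 and -1.09). Mlkl and Ripk3, which execute necroptosis, were lower in PMN-MDSCs than in M-MDSCs with vehicle (-1.13 and -1.01).

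The libraries were checked against their labels and for other cells. FPKM sums ran from 564078 to 860841 per library, 13582 to 14211 genes were above 0, and an estimated 7.07 to 10.6 M reads stood behind a library, so 43 to 1702 reads for Il1b. Replicate libraries correlated at r of 0.995 to 0.996 over all symbols, and no pair held identical values. Ccr2, a receptor of monocytes, was at 124 to 147 FPKM in M-MDSCs and 27.5 to 40.7 in PMN-MDSCs, while Csf1r was no lower in vehicle PMN-MDSCs (145 and 160) than in vehicle M-MDSCs (123 and 123). The neutrophil receptor gene Cxcr2 was at 2.81 to 20.8 FPKM in M-MDSCs and 80.8 to 328 in PMN-MDSCs, and Ly6g was not analysed here. Of the sorting markers, Ly6c2 was at 511 and 455 FPKM in vehicle PMN-MDSCs and 1418 to 1677 in treated ones. In M-MDSCs it was at 1360 and 1306 FPKM with vehicle and 2041 to 2447 with the drugs. Ly6c1 was also higher in every treated library than in the vehicle libraries of its subset. All 8 neutrophil markers were above 1 FPKM in every group, and their sum moved with the drugs, from 11400 and 12100 FPKM in vehicle M-MDSCs to 22000 to 26000 in treated ones, and from 70300 and 96000 to 254000 to 295000 in PMN-MDSCs. S100a8 and S100a9 made up most of that sum, and with MS-275 in M-MDSCs Ltf, Camp and Ngp were lower than with vehicle while Cxcr2 was higher. The sum of 7 dendritic cell markers, most of it Ccl17, was lower with both drugs than with vehicle. In M-MDSCs it went from 32.7 and 45.6 to between 2.52 and 7.09 FPKM. In PMN-MDSCs it went from 123 and 145 to between 15.8 and 20.6. Clec9a, low throughout, went the other way in PMN-MDSCs with CXD101, at 0.717 and 1.18 FPKM against 0.615 and 0.345 with vehicle. Its MS-275 libraries there overlapped the vehicle libraries. The sum of 7 macrophage markers went from 150 and 152 FPKM in vehicle M-MDSCs to between 76.3 and 140 in treated ones, and from 191 and 200 to between 112 and 143 in PMN-MDSCs. Not all of its genes went that way, and with each drug Adgre1 was higher than with vehicle in M-MDSCs and Apoe in both subsets. The sum of 5 eosinophil and basophil markers went from 17.7 and 19.4 to between 120 and 176 FPKM in M-MDSCs, and from 99.2 and 116 to between 63.8 and 88.5 in PMN-MDSCs. In PMN-MDSCs Siglecf went the other way with MS-275, at 29.6 and 30.6 FPKM against 21.1 and 27.0 with vehicle. Mcpt8 with CXD101 stayed within its vehicle range there. The part of these shifts in the results above was not tested. The 6 lymphocyte and NK cell markers summed to at most 3.47 FPKM, with Ncr1 at 0 in all 12 libraries. Of 5 hepatocyte and liver tumor markers, Ttr was at 0 in all 12 libraries and Alb in 11, while Trf was present in all 12. Trf made up most of the sum of this list, which was 40.6 to 64.3 FPKM in M-MDSCs, 157 and 163 in vehicle PMN-MDSCs and 232 to 272 in treated ones.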

How the data were processed

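The authors deposited 1 table per library with FPKM values, already scaled by gene length and library size. The submitters' processing notes name TopHat2 2.1.1, Bowtie2 2.2.8, SAMtools 0.1.18, Cuffdiff 2.2.1 and mm10, without their roles. Libraries were stranded, single-end and poly(A)-selected, and whether counting used the strand is not given in the sources used here, so reads of a gene and of a gene overlapping it may not have been told apart. Groups came from the labels, and the regimen from the methods of the study. The labels name the miRNeasy Micro kit and the methods the Mini kit.

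From the FPKM values, log2(FPKM + 1) was fitted with limma 3.58.1 in R 4.3.3 (lmFit, contrasts, eBayes with an intensity trend), in 1 model per subset for the drugs and 1 model of all 12 libraries for subset differences and interactions. The test was two-sided, with Benjamini-Hochberg adjustment. No count model was used. In M-MDSCs, 198 of 200 genes given a known 2-fold change in simulated data were called and 4 unchanged genes were called, of 11078. The numbers were 198 and 7 in PMN-MDSCs and 192 and 7 for the MS-275 interaction. The changed genes were drawn only from those above a set mean level, and each gene's variance was averaged with the median variance. Il1a, Il1b and Il18bp in M-MDSCs were below that level, so the recovery does not describe them. The relative depth was inferred from the smallest differences among low values and annotated transcript lengths, so it is an estimate and no interval was drawn from it. Gene positions are from GENCODE M21 (GRCm38, the sequence of mm10). Python 3.11.15, numpy 2.4.6, pandas 2.3.3 and matplotlib 3.10.9 were used for the rest.

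The members and lists were chosen with earlier results of these data known. From the lists, genes called against vehicle or between the subsets were named, at most 8 per list, by largest change. Alternatives were a pseudocount of 0.1, no filter, median-of-ratios scaling, quantile normalization, a replicate block, no trend, all 12 libraries in 1 model, and each library left out.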

Additional observations from a re-analysis of the deposited data

Results flagged for a closer look

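The rise of Il18 with MS-275 differed between the subsets by a test of the difference itself. The interaction, the change in PMN-MDSCs minus that in M-MDSCs, was -0.68 on the log2 scale (SE 0.178, adjusted p = 0.0157 by limma, Benjamini-Hochberg), and over its 18 alternatives it lay between -0.82 and -0.53 with adjusted p between 0.00874 and 0.0630. Il18 rose in both subsets, and all 4 MS-275 libraries were above the vehicle libraries of their subset.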

How the results depend on the processing

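Il18 was called in all 4 comparisons with vehicle, Il18bp in both drug comparisons of PMN-MDSCs, Il1a with MS-275 in M-MDSCs and with CXD101 in PMN-MDSCs, and the 8 subset differences, under every alternative run. Of the results for single genes, 1259 kept their direction and side of the threshold, 17 lost a call, 19 gained one and 25 turned direction. With 2 libraries a group, a left-out library leaves a group of 1 that is assumed to vary like the others, and estimated reads as low as 37 limit Il18 and 43 Il18bp and Il1b. The cause of the changes below was not tested.

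The 2 calls with CXD101 in M-MDSCs became 1 with no filter, quantile normalization and no trend, where Il1b was lost (adjusted p = 0.122, 0.0604 and 0.0713, limma), and were between 1 and 3 without 1 library. The 0 calls between the drugs in M-MDSCs became 1, Il1rn, with a pseudocount of 0.1 (0.59), median-of-ratios scaling (0.60) and quantile normalization (0.65), and were 0 to 2 without 1 library. The 1 call between the drugs in PMN-MDSCs became 0 with no filter, no trend and all 12 libraries in 1 model (Il1b, adjusted p = 0.0883, 0.0896 and 0.0833), and was 0 to 1 without 1 library. The 1 call of the MS-275 interaction was 0 to 2 without 1 library, and the 0 calls of the CXD101 interaction became 1 with quantile normalization (Il18bp, 0.76) and were 0 to 1 without 1 library. Over all genes, calls between the drugs in PMN-MDSCs were 52 higher and 38 lower, and 3 and 1 with no filter, 23 and 12 with no trend, 85 and 66 with all 12 libraries, and 6 and 4 without PMN-MDSC CXD101 replicate 2, the fewest in all for any 1 library left out. Those in M-MDSCs were 357 and 130, and 178 and 131 without M-MDSC MS-275 replicate 1. Il1rn with MS-275 in M-MDSCs was called with median-of-ratios scaling (0.60), quantile normalization (0.68) and without MS-275 replicate 1 (0.62). Il1a with CXD101 in M-MDSCs was called with a pseudocount of 0.1 (-0.64) and without vehicle replicate 2 (-0.73), and Il1a with MS-275 in PMN-MDSCs without MS-275 replicate 1 (-0.59).

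Directions turned only in values near 0 that were not called. With MS-275 in M-MDSCs, Il1r2 was 0.018 with median-of-ratios scaling, 0.12 with quantile normalization and -0.085 to 0.044 without 1 library. With CXD101 in M-MDSCs, quantile normalization gave Il1rn 0.025 and Gsdmd 0.045, and leaving out 1 library gave Il1rn -0.092 to 0.070, Casp1 -0.30 to 0.0022 and Gsdmd -0.048 to 0.017. In PMN-MDSCs, Nlrp3 with MS-275 was 0.012 with quantile normalization, and Gsdmd with CXD101 was -0.062 to 0.075 without 1 library. Between the drugs, leaving out 1 library gave Il18 in M-MDSCs -0.13 to 0.16, and in PMN-MDSCs Casp1 -0.16 to 0.0011 and Casp4 -0.16 to 0.19. The Casp1 interactions were -0.0061 to 0.17 (MS-275) and -0.19 to 0.12 (CXD101), and with CXD101 that of Casp4 was -0.080 to 0.27 and that of Gsdmd -0.047 to 0.090, with -0.0014 under quantile normalization.

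Libraries with the same replicate number did not deviate together (correlations of deviations -0.126 to 0.179 over 15 pairs of groups), and the labels do not say that a number marks a shared animal. With the replicate block, 2 and 2 genes were called in M-MDSCs against vehicle, 2 and 3 in PMN-MDSCs, and 8 between the subsets, and it changed no call of the 10 genes.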
